A study of Arabidopsis thaliana with 35 samples.

Results

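The genes described here are 142 nuclear genes of Arabidopsis thaliana whose RNA stood high 10 d after seedlings returned from 40 d of cold (T10), and near the level of seedlings without cold (NV) when the cold ended. They were chosen from the averaged RNA values by r, the log2 ratio of a group's average plus 1 to the NV average plus 1. A member had r below 1 after 1 h and after 1 d of cold, an absolute r below 0.5 after 40 d of cold, and r of at least 1.5 at T10. These values chose the genes, so r at those 4 times is given as a description, without a test. The members are 0.763% of the 18622 nuclear genes in the RNA table. Of them, 140 are protein-coding, 1 is a pseudogene (AT4G16870) and 1 is a microRNA gene (MIR414, AT1G67195).

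All groups were Col-0 seedlings that carry a functional FRI allele, grown at 22 °C in 16 h of light and 8 h of dark. T10 seedlings spent 10 d back in normal conditions after 40 d of cold, the cold groups had 1 h, 1 d, 10 d, 20 d or 40 d of cold (V1h to V40d; 40V in the ChIP series), and NV seedlings had none. RNA-seq covered these 7 groups, and ChIP-seq of H3K27me3, H3K36me3 and H3K4me3 covered T10, 40V and NV, with 2 libraries per group and mark. NV is the only group without cold, so the return to warmth cannot be told apart from the greater age of T10 plants, and in whole seedlings more cells of a type cannot be told apart from more RNA per cell. The labels do not say whether the 2 libraries of a group came from separate cultures, so p-values measure the spread between these libraries, which may be technical.

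Vernalization is the long winter cold that lets many plants flower in the following spring. A functional FRI keeps the floral repressor FLC active, and prolonged cold silences FLC through the Polycomb mark H3K27me3, a state that lasts after warmth returns. H3K4me3 lies at the start of active genes and H3K36me3 along their bodies. A plant that returns from cold can also resume growth, and its needs for sulfur, phosphate and carbohydrate may change with it. Growth and nutrient needs were not measured here.

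The RNA values are the authors' normalised counts, scaled per library and not divided by gene length. Each average was split into the reads of its 2 libraries, called deeper and shallower by their read totals. Reads ran from 3.17 M in the shallower T10 library to 21.5 M in the deeper V40d library. Across 18619 genes, which are not replicates, log2 levels of the 2 libraries of a group correlated at 0.923 (V1h) to 0.992 (V10d), and at 0.948 within T10. The deeper NV library correlated at 0.972 with the shallower V1h library, and the shallower NV library at 0.971 with the deeper V1h library. Both values were above the 0.953 between the NV libraries and the 0.923 between the V1h libraries. NV and V1h thus did not sort by their labels, and NV is the baseline of every r. The 11 green leaf genes split in all groups summed to 9224 and 9092 in T10 and 12635 and 8228 in NV. None of 11 matched flower organ genes is in the RNA table.

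Among the 142 genes, r(T10) ran from 1.503 to 3.85 with a median of 1.84. It was at least 2 in 44 members and at least 3 in 8. The median level over members was 3.73 in NV, 4.18 at V40d and 17.57 at T10, and the median over all nuclear genes was 6.11, 6.11 and 6.28 at these times. The rule set no lower limit at V1h and V1d, where r ran from -0.71 to 0.77 and from -2.39 to 0.99. In 37 members the NV average was under 1. Both T10 libraries lay above both NV libraries in 139 members, and above all 12 other libraries in 135. The same held for 27.6% and 11.6% of all nuclear genes, and the rule itself selects for it. The 3 members without that separation from NV were CP12-1 (AT2G47400), CXIP4 (AT2G28910) and AT2G44430.

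The 2 T10 libraries did not carry all members alike. In 22 members the shallower T10 library was at least 2 times the deeper one, and in 1, RGF9 (AT5G64770), the order was the opposite by as much. With the shallower T10 library alone, r(T10) was at least 1.16 in every member, and 122 of 142 stayed at 1.5 or above. With the deeper one alone, 109 stayed at 1.5 or above and 14 were under 1. Among these 14 were DME, ALP and CYP82C2, named below, with r(T10) of 0.94, 0.86 and 0.82. Leaving out the deeper or the shallower NV library left 115 and 122 members at 1.5 or above, with a lowest r(T10) of 1.17 and 1.15. The whole rule, with its cold limits, kept 96 and 93 of the 142 without the deeper or the shallower NV library, and 122 and 109 without the deeper or the shallower T10 library. The shallower T10 library held at least 16 reads for every member, with a median of 107.

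**Figure D1:**
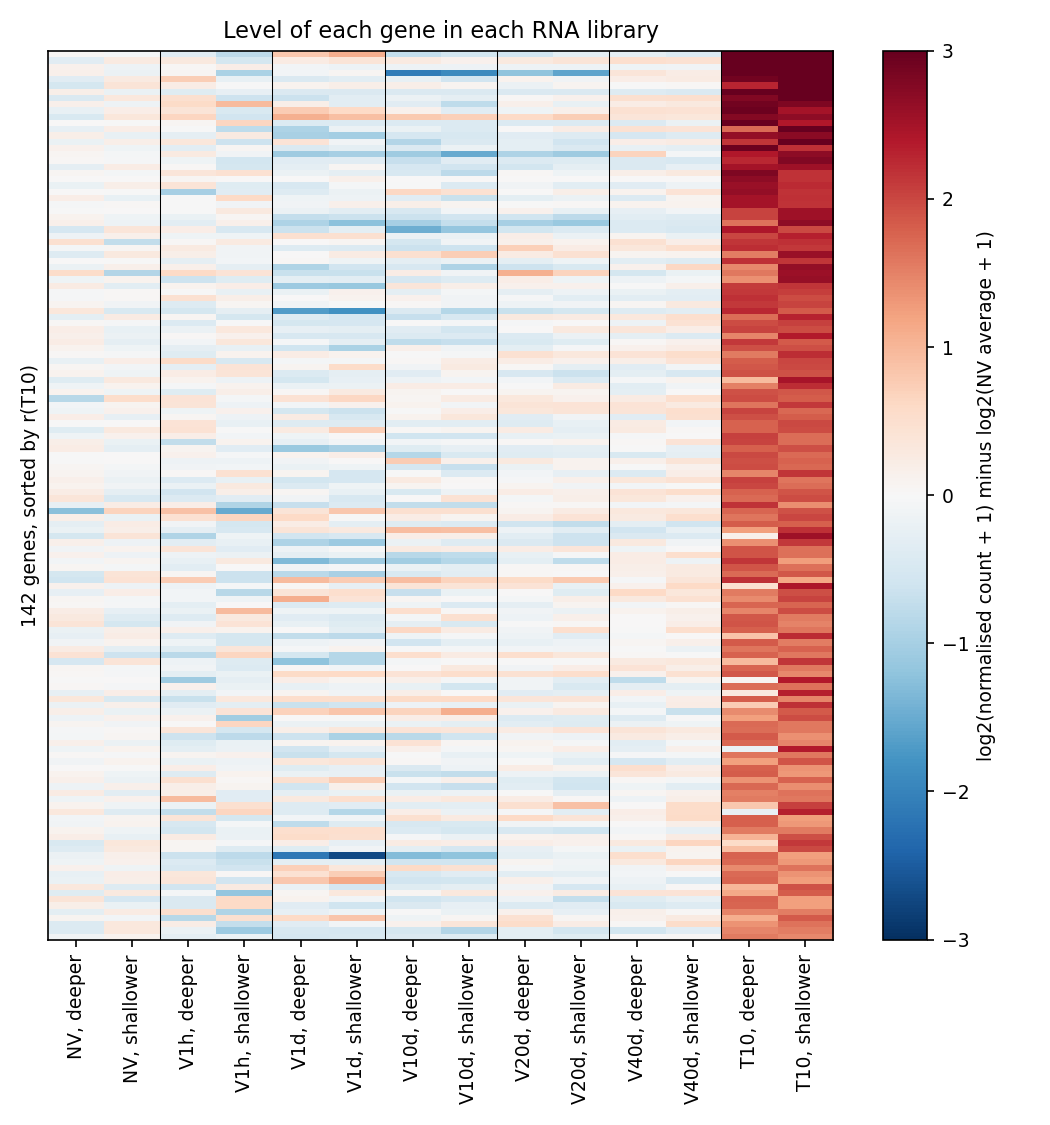
Level of each of the 142 genes (rows, sorted by r(T10)) in each of the 14 RNA libraries (columns, in order of time), as log2(normalised count + 1) minus log2(NV average + 1), with the scale limited to 3 on either side. The T10 columns are red in nearly all rows, paler in the deeper library for 14 genes with r(T10) under 1 there. In the cold groups the median r ran from -0.18 (V10d) to 0.08 (V40d), and the lowest r was -2.39 at V1d, -2.00 at V10d and -1.38 at V20d.

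The rule drew 142 of 513 nuclear genes with r(T10) of at least 1.5, or 27.7% of them. Of the others, 359 were away from NV at V40d, 286 of them higher and 73 lower. Just inside the T10 threshold were CCD1, with r(T10) of 1.503, and AT1G11410 and AT1G03365, both with 1.504. Just outside were AT1G15940, with T10 and NV averages of 13.0 and 3.95, AT5G43150, with 20.8 and 6.71, and AT5G20670, with 2.61 and 0.280.

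The 12 members with the largest r(T10) and separated libraries include genes of detoxification, mitochondrial stress, glutathione turnover and phosphate sensing. UGT73C1 (AT2G36750), a UDP-glycosyltransferase, had 29.1 and 25.7 normalised counts in T10, against 1.04 and 0.882 in NV and 0.136 to 3.18 over the 10 cold libraries (r(T10) 3.85). AT4G12290 had 44.6 and 44.7 in T10, against 1.68 and 3.11 in NV and 1.36 to 3.78 in the cold (3.75). NUDT24 (AT5G19470), a Nudix hydrolase, had 11.2 and 15.6 in T10, against 0.213 and 0 in NV and no more than 0.272 in the cold (3.70). In all 3 the T10 libraries lay far above every other library and close to each other.

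GGCT2;1 (AT5G26220), a gamma-glutamyl cyclotransferase that degrades glutathione, had 82.4 and 70.2 in T10, against 6.95 and 5.26 in NV and 0.660 to 8.19 in the cold (r(T10) 3.44). BCA3 (AT1G23730), a beta carbonic anhydrase, had 11.4 and 16.6 in T10, against 0.307 and 0.999 in NV and 0.103 to 1.74 in the cold (3.18). NAC13 (AT1G32870), a membrane-bound transcription factor of mitochondrial retrograde signalling, had 18.4 and 47.2 in T10, against 1.75 and 4.14 in NV and 2.50 to 3.58 in the cold (3.10). The T10 libraries of NAC13 differed more than 2 times, yet the lower one was above every other library.

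HSP23.6-MITO (AT4G25200), a small heat shock protein of mitochondria, had 9.74 and 10.6 in T10, against 0.520 and 0.176 in NV and 0 to 0.136 in the cold (r(T10) 3.05). RK2 (AT1G65800), a receptor kinase, had 25.96 and 36.2 in T10, against 1.94 and 3.94 in NV and 1.53 to 4.55 in the cold (3.03). Both were above all earlier libraries at T10. AT2G28720 had 23.1 and 21.3 in T10, against 2.55 and 1.88 in NV and 0.902 to 5.17 in the cold (2.85). SPX1 (AT5G20150), which binds the phosphate starvation regulator PHR1 when phosphate is ample, had 32.9 and 23.58 in T10, against 2.74 and 4.03 in NV and 2.18 to 6.46 in the cold (2.74). Their T10 libraries also stood apart, by a smaller margin. AT3G50840 had 21.9 and 20.8 in T10, against 1.47 and 3.32 in NV and 1.29 to 6.05 in the cold (2.72). AT1G76960 had 9.46 and 6.07 in T10, against 0.355 and 0.323 in NV and 0 to 1.09 in the cold (2.71). None of these 12 genes overlapped between T10 and any earlier library. Both T10 libraries lay above all 12 others in 11.6% of all nuclear genes. The rule and the choice of these 12 genes select for such a gap.

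**Figure D2:**
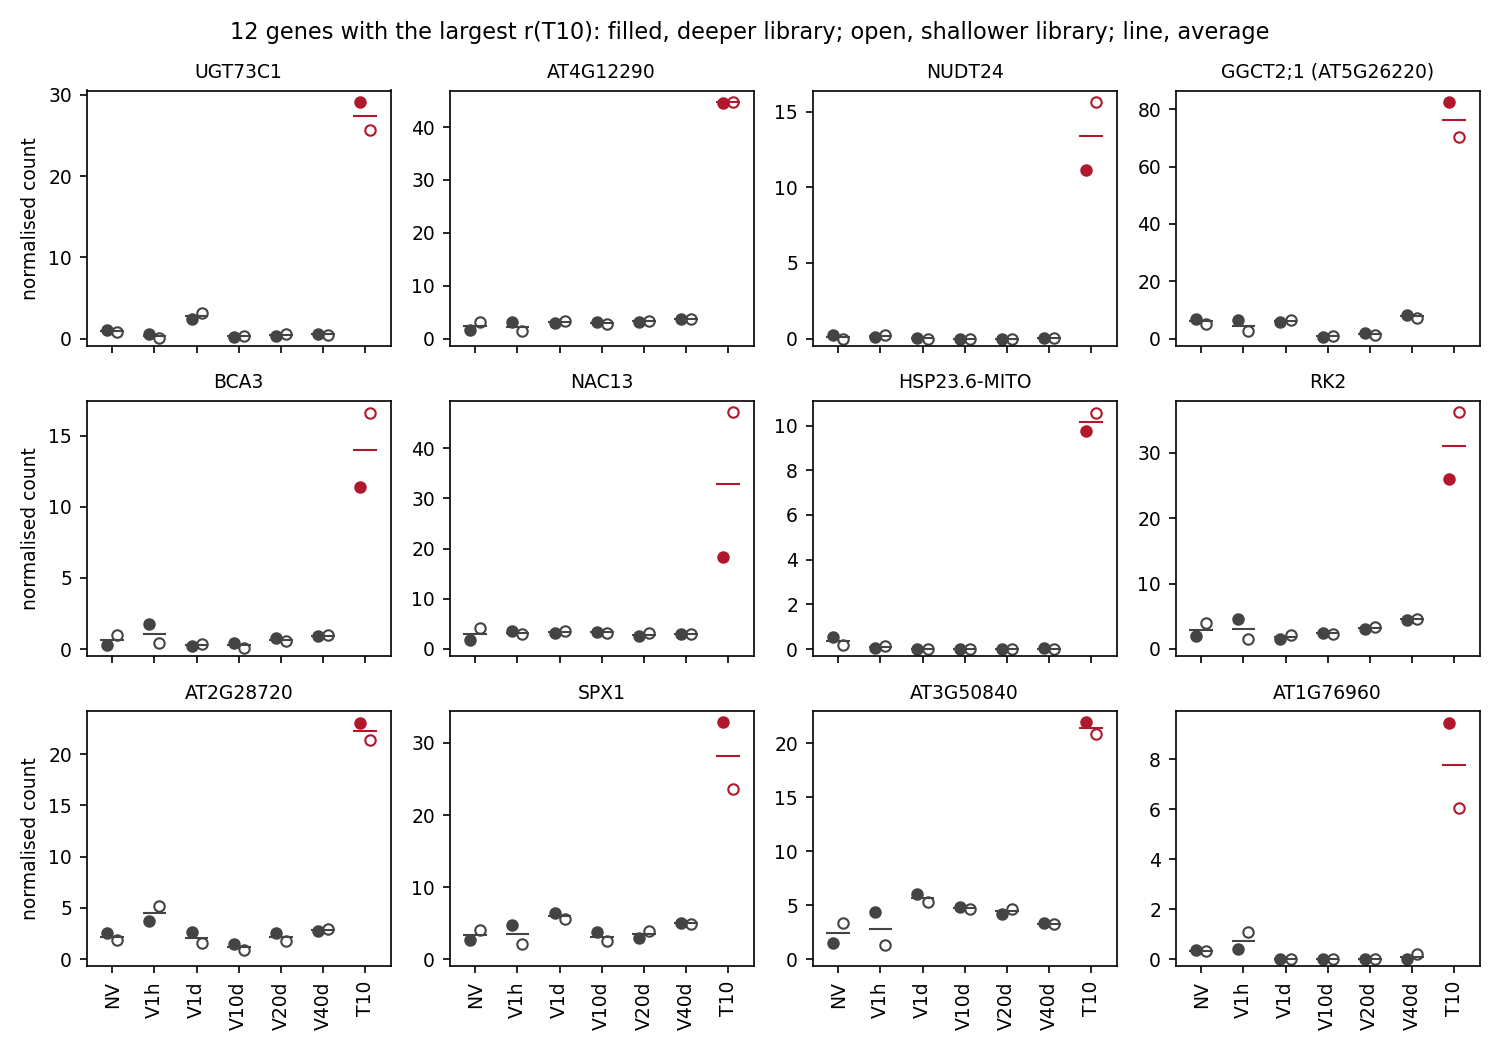
Normalised counts (linear axes) of the 12 genes with the largest r(T10) in the 7 groups in order of time. Filled points are the deeper library, open points the shallower one, and lines the average; in each panel both T10 points lie above all points of the other groups.

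The 3 members with the largest T10 averages encode, by their names, 2 cysteine proteases and a protein known here by its identifier. RD21A (AT1G47128), a papain-like protease, had 295 and 461 in T10, against 116 and 134 in NV. GAMMA-VPE (AT4G32940), a vacuolar processing enzyme, had 288 and 280 in T10, against 81.9 and 69.5 in NV. AT5G35970 had 147 and 354 in T10, against 51.8 and 61.4 in NV. These levels are not divided by length, so they do not rank the genes by transcript number.

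Further members are grouped by role below, a grouping made after their values were seen, and 47 of the 142 fall in such a group. The rule selects for levels at T10 above NV and the cold, so statements below that libraries were apart are descriptions. The RefSeq gene table gives a symbol for 71 of the whole set and none for the other 71.

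Besides GGCT2;1, the sulfur and methionine group held 3 genes. SERAT3;2 (AT4G35640), a serine acetyltransferase that makes the carbon backbone for cysteine, had 9.90 and 6.59 in T10, against 2.34 and 1.85 in NV. ARD4 (AT5G43850), an acireductone dioxygenase of the methionine salvage cycle, had 79.7 and 59.8 in T10, against 20.4 and 11.4 in NV. MSRB4 (AT4G04810), a methionine sulfoxide reductase, had 12.8 and 6.42 in T10, against 1.92 and 2.26 in NV. In each gene the T10 and NV libraries were apart, and r(V40d) lay between -0.35 and 0.31.

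Starch enzyme genes made up 4 members. The starch synthases SS4 (AT4G18240), with 41.4 and 37.5 in T10 against 5.18 and 14.7 in NV, and SS3 (AT1G11720), with 33.1 and 37.3 against 6.31 and 12.8, build amylopectin and start granules. DPE2 (AT2G40840), the cytosolic enzyme that uses maltose from starch breakdown, had 247 and 191 in T10, against 53.6 and 64.6 in NV. BAM6 (AT2G32290), of the beta-amylase family, had 5.41 and 3.47 in T10 and no read in either NV or V40d library. Genes of starch synthesis and of starch breakdown thus stood high in the same libraries.

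Chloroplast members included PIFI (AT3G15840), a chloroplast protein, with 144 and 116 in T10 against 28.4 and 21.1 in NV. The chlorophyll b reductase NYC1 (AT4G13250) had 120 and 113 in T10, against 28.7 and 25.0 in NV. The chloroplast ferric reductase FRO7 (AT5G49740) had 44.1 and 31.4 in T10, against 6.27 and 6.26 in NV. In these 3 genes T10 and NV did not overlap. LHCB7 (AT1G76570), a light-harvesting protein, had 18.4 and 12.5 in T10, against 5.51 and 4.00 in NV. Its T10 libraries also lay above the NV libraries.

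The Calvin cycle regulators CP12-1 and CP12-2 (AT3G62410) differed in how their libraries agreed. CP12-2 had 55.3 and 53.1 in T10, against 14.9 and 10.8 in NV. CP12-1 had 18.5 and 113 in T10, against 26.98 and 16.3 in NV, so only the shallower T10 library was high. Without that library r(T10) of CP12-1 is -0.21.

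In carotenoid metabolism, the zeaxanthin epoxidase ABA1 (AT5G67030), which makes precursors of abscisic acid, had 166 and 266 in T10 against 57.5 and 54.7 in NV. The carotenoid cleavage dioxygenase CCD1 (AT3G63520) had 114 and 104 in T10, against 34.8 and 40.6 in NV. Both had separate libraries at T10 and NV.

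Beside RD21A and GAMMA-VPE, the cysteine protease ALP (AT5G60360) had 76.2 and 198 in T10, against 34.5 and 48.3 in NV. ERD1 (AT5G51070), a Clp chaperone of chloroplasts, had 129 and 122 in T10, against 38.9 and 40.5 in NV. The T10 libraries of ALP differed by more than 2 times and those of ERD1 by little.

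Cytochrome P450 genes, of a large family of oxidising enzymes, made up 6 members. CYP71B26 (AT3G26290) had 65.0 and 47.0 in T10, against 7.66 and 14.8 in NV. Its neighbour CYP71B4 (AT3G26280) had 61.0 and 44.4 in T10, against 15.6 and 12.4 in NV. CYP71B20, CYP71B28, CYP71A12 and CYP82C2 had r(T10) between 1.57 and 2.15. How reads were shared among these close paralogs was not given in the sources used here.

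In the jasmonate pathway, the lipoxygenase LOX2 (AT3G45140) had 195 and 182 in T10, against 39.5 and 43.2 in NV and 26.2 to 68.2 in the cold. ORA47 (AT1G74930), a transcription factor of jasmonate synthesis genes, had 6.03 and 9.02 in T10, against 0.875 and 0.588 in NV. Both were above every cold library at T10.

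Transport members were BOR5 (AT1G74810), of the borate transporter family, with 8.05 and 11.8 in T10 against 0.922 and 0.823 in NV, and the purine permease PUP1 (AT1G28230), with 14.1 and 14.6 against 3.78 and 1.03. UMAMIT38 (AT4G15540) and ABCG27 (AT3G52310) had r(T10) of 1.72 and 1.84. Transcription factors were ATH1 (AT4G32980), a homeodomain protein of the shoot meristem, with 24.4 and 13.9 in T10 against 3.74 and 5.55 in NV, and BZIP9, IBH1 and NAC048 with r(T10) of 1.78, 1.56 and 1.91. The DNA demethylase DME (AT5G04560) had 17.5 and 41.8 in T10, against 5.74 and 11.5 in NV. The repair protein gene RAD50 (AT2G31970) had 10.7 and 17.7 in T10, against 3.14 and 5.44 in NV.

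Other members of the pathway lists were UGT73B1 (AT4G34138), a glycosyltransferase, with 48.8 and 96.1 in T10 against 17.3 and 23.0 in NV, and RD20 (AT2G33380), a caleosin of oil bodies that responds to abscisic acid, with 3.65 and 3.64 against 0.426 and 0.353. Both were separated between T10 and NV. An unlisted gene of cyanide detoxification, the nitrilase NIT4 (AT5G22300), had 11.8 and 16.0 in T10, against 4.37 and 3.17 in NV.

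The values after 10 d and 20 d of cold were not used to choose the members, although r is taken against the same NV average. The rule also limited the members at V1d and V40d. Across genes, V10d and V20d libraries correlated with V40d libraries at 0.936 to 0.978. The set of all nuclear genes was not held to these limits, so it is not a matched comparison for the members. After 10 d, 103 members had an absolute r under 0.5, against 61.6% of all nuclear genes. Their number was 127 after 20 d, against 61% of all. None reached an r of 1 at either time, as 4.76% and 5.02% of all nuclear genes did. At or below -1 were 4 members after 10 d and 2 after 20 d, against 8.57% and 8.33% of all nuclear genes. GGCT2;1 was the lowest, with r of -2.00 after 10 d and -1.38 after 20 d.

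V20d against V10d shares no library with the rule and was tested with limma over 18766 genes, with Benjamini-Hochberg adjustment. Of the 142 members, 1 rose and none fell at an adjusted p under 0.05, against 0.65% and 0.4% of all genes. The 1 was LOX2, with 68.2 and 48.6 in V20d against 26.2 and 26.7 in V10d (log2 change 1.12, SE 0.19, adjusted p 0.0134). It did not pass without the deeper V20d library (adjusted p 0.268) or without the deeper or the shallower V10d library (0.191 and 0.172).

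The pathway lists give the other genes of these pathways, which the rule did not pick. The lists were chosen with earlier results of these data known, so their counts are not independent of these data. Symbols that matched no gene in the RefSeq gene table were left out, so a list can miss genes, members among them. Over all 18766 genes tested, limma called 13.7% higher and 10.7% lower at T10 than in NV, with a median log2 change of -0.03.

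Of the 17 other sulfur deficiency genes, 14 rose at T10 over NV, with none lower and a median log2 change of 2.04. Between 10 and 13 rose with 1 library left out. LSU1 (AT3G49580), a small protein induced when sulfur is short, had 85.7 and 117 in T10, against 2.72 and 4.97 in NV (log2 change 4.78, SE 0.33, adjusted p 3.94e-06). The beta-glucosidase BGLU28 (AT2G44460), which breaks down glucosinolates, had 120 and 137 in T10, against 0.993 and 2.85 in NV (6.31, SE 0.44, 3.94e-06). In both, the T10 libraries lay far above the NV libraries. ATSDI1 (AT5G48850), a repressor of glucosinolate synthesis, had 164 and 166 in T10, against 4.04 and 12.7 in NV (4.57, SE 0.38, 1.61e-05). APR3 (AT4G21990), which reduces activated sulfate, had 119 and 249 in T10, against 40.7 and 43.4 in NV (2.04, SE 0.28, 0.000348). Among sulfate transporters, SULTR2;1 and SULTR4;2 rose by 1.44 and 2.04, and SULTR1;2 and SULTR4;1 did not pass (0.51 and 0.24, adjusted p 0.114 and 0.335).

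These 17 genes were not held near NV at V40d by the rule, as GGCT2;1 and SERAT3;2 were. LSU1 had 17.5 and 13.5 in V40d, and BGLU28 had 23.7 and 19.8. At T10 against V40d, 9 of those 17 rose and none fell, where 13.3% and 10.1% of all genes were called higher and lower. Without the shallower V40d library 6 of the 17 rose.

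Of the 24 other detoxification genes, 8 rose and 1 fell at T10 over NV, and 13 rose and none fell at T10 over V40d. DOGT1 (AT2G36800), a glycosyltransferase encoded in the same family as UGT73C1, had 97.2 and 103 in T10, against 6.10 and 7.32 in NV (log2 change 3.91, SE 0.21, adjusted p 1.11e-06). UGT74E2 (AT1G05680), a glucosyltransferase of indole-3-butyric acid, had 74.8 and 74.2 in T10, against 2.96 and 3.38 in NV (4.56, SE 0.38, 1.39e-05). The glutathione transferase gene GSTU1 rose by 2.06 (SE 0.31, 0.00066), and GSTF8 fell by 1.301 (SE 0.29, 0.00725). Reads of such paralogs could have been split between copies in the authors' counting.

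Of 14 mitochondrial retrograde symbols, 11 matched a gene and 9 were measured, 1 of them a member. Of the 8 other measured genes, 2 rose and 1 fell at T10 over NV. AOX1A (AT3G22370), the alternative oxidase, had 276 and 249 in T10, against 29.4 and 31.9 in NV (log2 change 3.10, SE 0.20, adjusted p 3.24e-06), and 6.11 and 4.53 in V40d. NAC053 (AT3G10500) rose by 0.84 (SE 0.23, 0.0213), and NDB2, an external NADH dehydrogenase, fell by 0.82 (SE 0.22, 0.0179). NAC017, a regulator of the same response, did not pass (log2 change -0.17, adjusted p 0.528). The calls of NAC053 and NDB2 held in 2 of the 4 fits with 1 library left out.

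Of 23 genes of flowering and floral promotion, only 7 were measured. All 7 rose at T10 over NV, and none is a member. AGL20 (AT2G45660), the floral integrator also named SOC1, had 13.9 and 10.4 in T10, against 0.0473 and 0.470 in NV (log2 change 6.37, SE 0.87, adjusted p 0.000354). It had 8.58 and 10.1 in V40d, which is why the rule leaves it out. Without the deeper T10 or the deeper NV library 2 of the 7 rose, 5 without the shallower T10 library and 4 without the shallower NV library. None of the 7 differed between T10 and V40d, where 13.3% of all genes rose.

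Of 22 genes of abscisic acid and water deficit, 6 rose and none fell at T10 over NV, with the linker histone HIS1-3 (AT2G18050) at 43.8 and 34.9 in T10 against 0.993 and 1.35 in NV (log2 change 5.12, SE 0.35, adjusted p 3.94e-06). Of 17 phosphate starvation genes, 3 rose and 2 fell, with SPX2 up by 0.96 and the transporter PHT1;1 down by 1.03 (fitted log2 changes 0.96 and -1.03). Of 16 leaf senescence genes, 5 rose and 2 fell, with the chlorophyll breakdown genes NYE1 and ACD1 up by 1.67 and 1.41 and SAG21 lower (-2.61). Of 15 salicylic acid genes, 1 rose and 3 fell, and of 10 heat shock genes none was called. Without 1 library, 0 to 4 phosphate genes, 2 to 4 senescence genes and 0 to 1 salicylic acid genes rose.

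**Figure D3:**
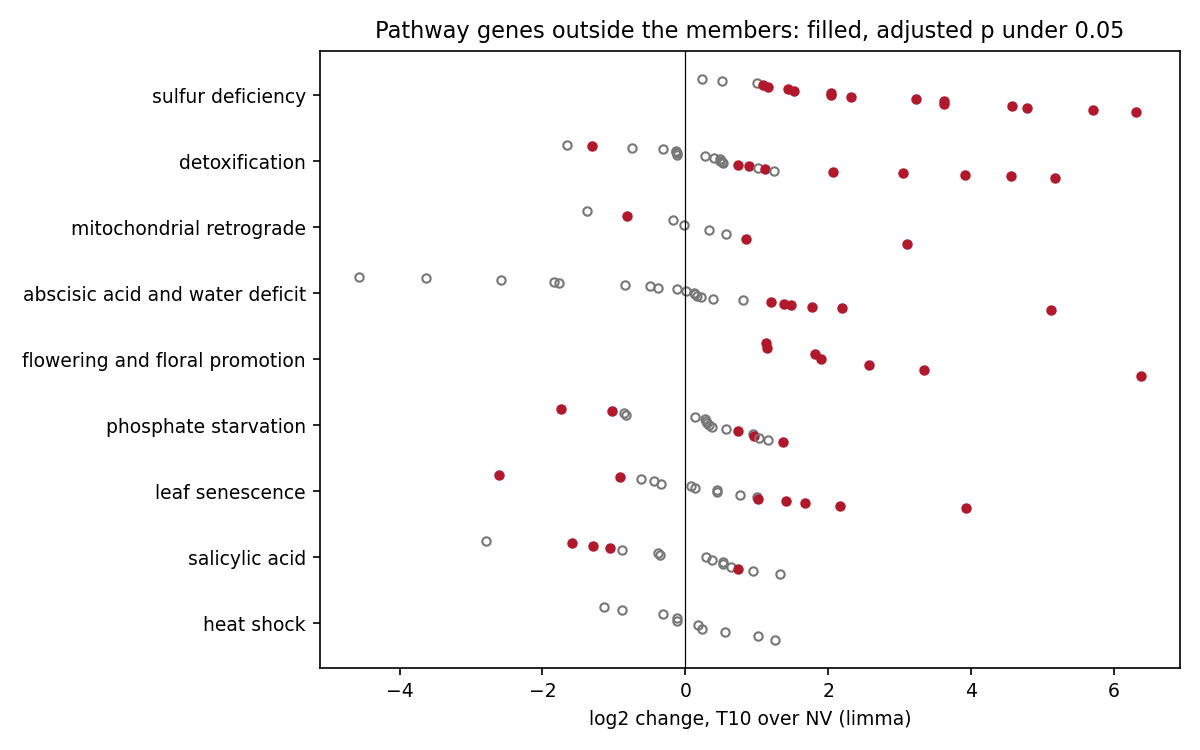
Fitted log2 change of T10 over NV (x axis) for the measured genes of 9 pathway lists (rows) that are not among the 142. The lists were chosen with earlier results of these data known. Filled points passed limma at an adjusted p under 0.05, with 14 of 17 filled on the right for sulfur deficiency and 7 of 7 for flowering.

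Markers of roots moved between the groups as well. Of 12 root markers, none rose and 6 fell at T10 against NV, with a median log2 change of -1.50. Their summed level was 39.3 and 42.8 in T10, against 89.9 and 155 in NV and 110 and 125 in V40d, and none was at 0 in T10 or NV. Without the deeper T10 library none of the 12 fell. At T10 against V40d, 5 rose and 2 fell, with a median log2 change of 1.67, although the summed level was lower at T10. Of 11 green leaf genes tested, RCA rose and CAB2 fell at T10 against NV, and 4 rose and 3 fell at T10 against V40d. Of 12 seed genes 3 were measured and 1 fell at T10 against NV, with summed levels of 0.0629 and 0.173 in T10 against 14.8 and 2.47 in NV. The part of these shifts in the levels of the 142 genes was not tested.

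The histone marks were not used to choose the members. For each of the 140 protein-coding members, the share of the gene covered by the authors' peaks was computed in each ChIP library, and a gene was called marked at a share of 0.5 or more. For H3K4me3 the covered length was set over 1000 bp, or over the gene if shorter, up to a share of 1.

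Fewer of the members carried the active marks than of all 18208 measured protein-coding genes. H3K4me3 was present in both NV libraries in 70.0% of members, against 85.9% of all genes, in both 40V libraries in 67.1% against 84.2%, and in both T10 libraries in 75.0% against 87.5%. H3K36me3 was present in both libraries in 38.6% of members in NV, 35.7% at 40V and 37.1% at T10, against 55.2%, 53.8% and 49.0% of all genes. H3K27me3 was present in both libraries in 8 members, or 5.71%, at each time, against 5.24% in NV, 5.77% at 40V and 5.92% at T10 for all genes. The 8 were the same at all times and included CYP71A12, CYP82C2 and OSM34. None of the 3 marks was present in 19.3% of members in NV, 20.7% at 40V and 14.3% at T10, against 7.78%, 7.60% and 6.60% of all genes.

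For H3K4me3 in NV, the gap to all genes was widest among members that were low without cold. Of members with an NV average of 10 or more, all 35 carried H3K4me3 in both NV libraries, against 96.2% of all such genes. Of those from 1 to 10, 79.4% did, against 84.9%, and of those under 1, 24.3% did, against 52.3%. In T10 libraries the share of that lowest class was 35.1%, against 57.1% of all such genes. H3K36me3 in NV was present in 77.1% of members of the highest class, against 74.9% of all such genes, in 38.2% against 49.8% of the middle class, and in 2.70% against 11.3% of the lowest. In H3K27me3 the 2 replicates disagreed. Replicate 1 was sequenced deeper at each time. In it, 18 of 140 members were marked in NV, 22 at 40V and 18 at T10. Of all genes, 7.22%, 9.74% and 9.27% were marked there, a lower share than of the members at each time. In replicate 2, 8 members, or 5.71%, were marked at each time, against 5.67%, 5.89% and 6.05% of all genes. The part of depth in the difference between replicates was not tested.

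**Figure D4:**
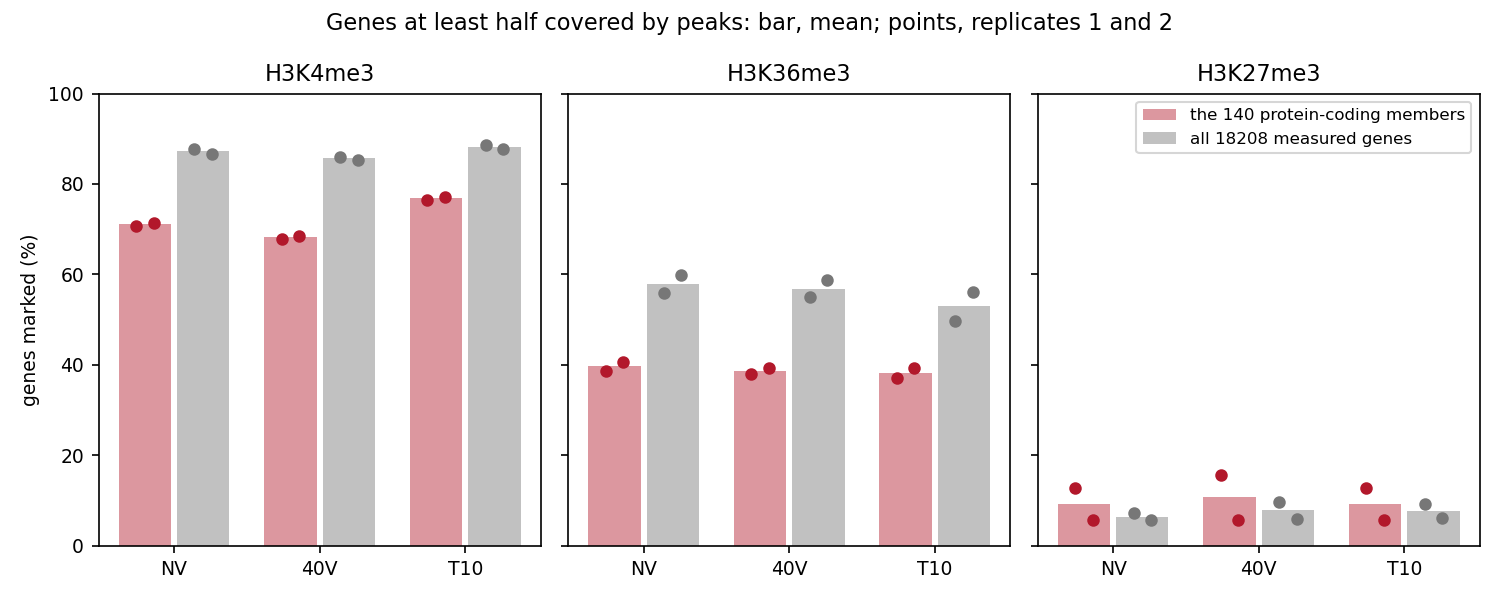
Percent of genes with a covered share of at least 0.5 at NV, 40V and T10 for the 3 marks, for the 140 protein-coding members (red) and all 18208 measured genes (grey). Bars are means and points replicates 1 and 2; the red H3K4me3 bars are lowest at 40V and highest at T10 and stay below the grey ones at each time.

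Change in H3K4me3 was tested with limma on the covered share over the 5813 genes whose share varied, 47 of them members. At T10 against NV, 4 members gained H3K4me3 and none lost it, against 2.24% and 0.791% of all genes tested. At 40V against NV, 3 gained and 6 lost it, against 4.46% and 9.01% of all. At T10 against 40V, 11 gained and 3 lost it, against 9.86% and 2.67% of all. By marked genes, 3 of 140 members gained H3K4me3 at 40V over NV and 6 lost it, against 0.774% and 1.77% of all genes. The comparisons at 40V against NV and T10 against 40V share the 40V libraries and are not independent of each other.

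The 4 genes that gained H3K4me3 at T10 over NV had no peak in any NV or 40V library. AT1G34060 on chromosome 1 had a share of 1 in both T10 libraries, from a peak at 12397039 to 12398376 in replicate 1 (build TAIR10, per the submitters' processing notes), and its adjusted p was 0.000868 (SE of the difference 0.024). AT3G61280 had shares of 0.896 and 0.912 in T10 (adjusted p 0.00116), with the replicate 1 peak on chromosome 3 at 22681439 to 22682334. AT2G21640 had shares of 0.649 and 0.605 (adjusted p 0.00281), with the replicate 1 peak on chromosome 2 at 9254528 to 9255176. In these genes the 2 T10 libraries were alike. AT1G78780 had shares of 0.628 and 0.767 (adjusted p 0.0122), with the replicate 1 peak on chromosome 1 at 29621695 to 29622322. Its limma call was lost when replicate number was added to the fit as a block (adjusted p 0.0568). A share of 0 means that the authors called no peak there, not that the mark was absent. Fold enrichment of the T10 peaks was 2.65 and 2.74 in AT1G34060 and 2.09 and 2.18 in AT3G61280. It was 1.67 and 1.59 in AT2G21640 and 1.71 and 1.86 in AT1G78780. The T10 libraries of this mark held 37.0 and 30.6 M tags, against 27.4 and 20.1 M in NV and 33.8 and 23.9 M at 40V. The part of depth in these gains was not tested.

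Their RNA was low before T10. AT1G34060 had 4.84 and 6.42 normalised counts in T10, against 0.307 and 0.617 in NV. AT3G61280 had 2.64 and 2.95 in T10, against 0.520 and 0.0294 in NV. AT2G21640 had 7.83 and 5.90 in T10, against 0.284 and 0.647 in NV, and AT1G78780 had 7.61 and 5.90 against 1.32 and 1.88. In each the T10 libraries were above both NV libraries. By the count of genes marked in both T10 libraries and in neither NV library, AT5G64190 was added, so that 5 of 140 gained the mark, against 0.78% of all genes, and none lost it, against 0.297%.

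A set of 6 members lost H3K4me3 after 40 d of cold and carried it again at T10, a group named after its values were seen. Of all genes tested, limma called 9.01% lower at 40V against NV and 9.86% higher at T10 against 40V. The share of all genes with both changes was not counted, so this set has no background beside it. AT2G29320 had a share of 1 in both T10 and both NV libraries and 0 in both 40V libraries (adjusted p 0.000134 for 40V against NV, 0.000131 for T10 against 40V). LOX2 had shares of 0.740 and 0.617 in NV, 0 in both 40V libraries and 1 in both T10 libraries (adjusted p 0.0029 and 0.000941). SERAT3;2 had 1 in both NV libraries, 0.231 and 0 at 40V, and 1 in both T10 libraries (0.00677 and 0.00688). Its call at T10 against 40V was lost without either T10 library (largest adjusted p 0.0729). In these genes the 2 libraries of each time were alike and 40V stood apart.

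AT1G70810, AT3G10120 and AT1G11410 had the same order, with 40V shares of 0 to 0.001 and NV and T10 shares of 0.816 to 1. AT3G10120 lies wholly within the span of the annotated gene AT3G10130, so its peaks and reads may belong to that gene. The averaged RNA of these 6 members at V40d was within 0.5 of NV on the log2 scale, since the rule required it, with r(V40d) of 0.43 for LOX2, 0.31 for SERAT3;2, 0.24 for AT2G29320, 0.23 for AT1G70810, -0.05 for AT3G10120 and -0.44 for AT1G11410.

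GGCT2;1 had shares of 0 and 0.767 in NV, 0 and 0 at 40V and 1 and 1 in T10, and ATH1 had 0 and 0.630 in NV, 0 and 0 at 40V and 0.653 and 0.640 in T10. Neither passed limma, and both count among the 12 of 140 members that were marked in both T10 libraries and neither 40V library, against 2.23% of all genes. The 3 members marked at 40V and not at T10, against 0.549% of all genes, were the aldo-keto reductase gene ChlAKR (AT2G37770), ABCG27 and AT5G24640. ChlAKR had shares of 0.669 and 0.600 at 40V and 0 in the other libraries, and did not pass with peaks of -log10 q of at least 5 alone. Its RNA was 3.52 and 4.16 in T10 against 0.828 and 0.529 in NV. The calls of AT5G24640 were lost without either NV library at 40V against NV, and without either T10 library at T10 against 40V. In these 3 genes the covered share and the RNA were highest at different times. AT5G24640 was partly covered at the other times too, with shares of 0.23 to 0.31 in NV and T10 from peaks that reach beyond it. At 40V a peak of 3302 bp covered it in replicate 1. AT1G04650, also called at T10 against 40V, changed by a share of 0.0485 only.

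**Figure D5:**
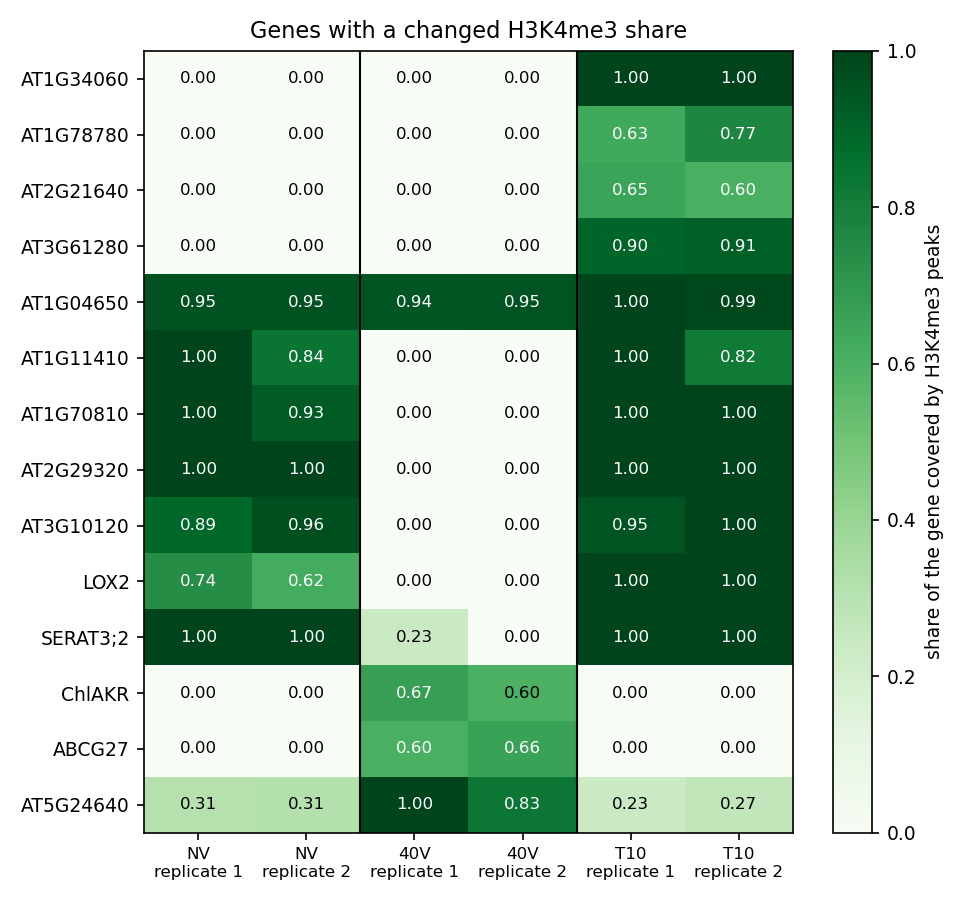
Share of the gene covered by H3K4me3 peaks (cell values and green scale) in the 6 libraries for the 14 members called by limma at T10 against NV or against 40V. The upper 4 genes are at 0 outside T10, 6 genes from AT1G11410 to SERAT3;2 are at 0 to 0.231 at 40V only, and the lowest 3 are highest at 40V.

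For H3K36me3, limma tested 13446 genes, 87 of them members. At T10 against NV, 2 members gained and 1 lost it, against 0.342% and 0.617% of all. SERAT3;2 had shares of 0.305 and 0.259 in T10 and 0 in NV and 40V (adjusted p 0.0409 at T10 against NV), and AT5G16980 had 0.339 and 0.338 in T10 and 0 in NV and 40V (0.0192). The catalase gene CAT1 (AT1G20630) had 0 in both T10 libraries, against 0.405 and 0.414 in NV (0.0128), and also 0 at 40V, although its RNA was 47.99 and 37.98 in T10 against 12.2 and 10.4 in NV. SERAT3;2 and AT5G16980 kept their calls in 2 and 4 of 6 alternative fits.

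At T10 against 40V, 4 members gained H3K36me3 and none lost it, against 0.803% and 0.707% of all genes: SERAT3;2, AT5G16980, RK2 and CP12-2. CP12-2 had shares of 0.832 and 1 in NV, 0.502 and 0.484 at 40V and 1 and 1 in T10 (adjusted p 0.0374). RK2 had 0.213 and 0.211 in NV, 0 at 40V, and 0.356 and 0.326 in T10 (0.0174). The call of CP12-2 was lost without any 1 of the 4 libraries compared. At 40V against NV, CAT1 alone lost it and none gained it, against 0.707% and 0.216% of all. By marked genes, AT4G27300 gained and SS3 lost H3K36me3 at T10 over NV, against 0.373% and 2.08% of all genes, and also at T10 over 40V, against 1.01% and 2.43%. No member did either at 40V over NV, against 0.939% and 1.61% of all genes.

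For H3K27me3, limma called none of 2681 genes in any of the 3 comparisons, 33 of them members. At an unadjusted p under 0.05 there were 39 genes at T10 against NV, 36 at 40V against NV and 11 at T10 against 40V, none of them a member. By marked genes, none of 140 members gained or lost it in any comparison, against 0.198% gained and 0.0165% lost of all genes at T10 over NV, 0.154% and 0.0165% at 40V over NV, and 0.0165% and 0.00549% at T10 over 40V. NUDT24 had shares of 0.944 and 0.383 in NV, 0.998 and 0.455 at 40V, and 1 and 0.397 in T10, with replicate 1 first. BCA3 was at 0.677 and 0 in NV, 0.830 and 0.350 at 40V, and 0.791 and 0 in T10. In both genes the replicates differed more than the times.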

How the data were processed

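RNA-seq of 7 groups used total RNA depleted of ribosomal RNA and a stranded kit, per the labels' protocols. The strand setting of the counting was not given in the sources used here. The authors deposited 1 averaged signal (a normalised count, in a scaling that was not stated) per gene and group. Bowtie2, TopHat, edgeR, MACS2 and build TAIR10 are named in the submitters' processing notes. Each deposited average was split into the whole reads of 2 libraries at a relative tolerance of 1e-12. The split was unique for all but 13 of 18779 genes.

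The 142 genes and the pathway and marker lists were chosen with earlier results of these data known, and the role groups after the values were seen. Genes named were the 12 with the largest r(T10) and separated libraries, the 3 with the largest T10 averages, 3 on either side of the threshold, members of the lists and members called by limma at T10 against NV. Others were named after their values were seen. RNA was tested with limma 3.58.1 (R 4.3.3) and voom on the recovered reads of all 14 libraries in 1 fit, over 18766 genes, with Benjamini-Hochberg adjustment at 0.05. The scripts were tested on simulated data.

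Peaks, their positions and their −log10 q were called by the authors with MACS 2.1.1.20160309, per library against the input of its time point, per the file headers. The share of each gene under peaks was tested with limma over genes whose share varied. The RefSeq gene table used for spans and names (TAIR10.1) gives no strand, so the H3K4me3 length was set over 1000 bp and not tied to the gene's start. A share at 0 or 1 in both libraries has no spread of its own, and limma's moderated spread stands in for it. ChIP depth ran from 3.42 to 37.0 M tags. Tables and figures were made with Python 3.11.15, numpy 2.4.6, pandas 2.3.3 and matplotlib 3.10.9.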

Additional observations from a re-analysis of the deposited data

How the results depend on the processing

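The rule gave 137 to 228 genes with 1 NV or T10 library left out, against 142, and 93 to 122 of these were shared. Of the settings with all libraries, it gave 169 genes (123 shared) with a pseudocount of 0.5, 107 (90 shared) with 2, and 146 (140 shared) with median-of-ratios scaling. Without the shallower T10 library r(T10) of CP12-1 was -0.21, and without the deeper one 2.33. In fits with 1 library left out, a lone library is assumed to vary like the other groups. RNA calls were then 9 to 36 for V20d against V10d (197 with all libraries; members 0 to 1), 1482 to 5114 for T10 against NV (4574) and 1776 to 3536 for T10 against V40d (4394).

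Leaving out 1 ChIP library gave, for H3K4me3, 197 to 742 calls at T10 against NV (176; members higher 5 to 10, lower 0 to 1), 1145 to 1364 at 40V against NV (783; members higher 3 to 6, lower 6 to 11) and 583 to 1363 at T10 against 40V (728; members higher 10 to 19, lower 2 to 3). For H3K36me3 it gave 90 to 206 at T10 against NV (129; members 0 to 4 and 1 to 2), 56 to 189 at 40V against NV (124; 0 to 1 and 0 to 3) and 117 to 223 at T10 against 40V (203; 1 to 5 and 0 to 1). For H3K27me3 it gave 0 to 68, 0 to 239 and 0 to 233, against 0 in each, with the highest counts when T10 or 40V replicate 2 was left out. The cause was not tested.

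With the replicate block, H3K36me3 calls at T10 against NV were 66 (129 without it), with 0 members higher, and 1 member was lower at T10 against 40V. AT1G78780 had an adjusted p of 0.0568 with the block. Deviations of libraries with the same number correlated at 0.26 to 0.74 between times, and with 2 numbers per time, and no label of a shared batch, this does not settle whether the numbers pair the libraries. For RNA, no paired analysis was possible because the averages carry no replicate numbers. With peaks of −log10 q of at least 5 alone, 1 member was higher in H3K36me3 at T10 against NV.

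With a share of 0.3 for a marked gene, H3K36me3 changed in 280 genes at T10 against NV (members 5), 246 at 40V against NV (members 3) and 320 at T10 against 40V, and H3K27me3 in 1 member at 40V against NV. With 0.7, H3K36me3 changed in 4 members at 40V against NV, H3K27me3 in 11 genes at T10 against 40V, and H3K4me3 in 3 members at T10 against NV. The other 152 summary results under an alternative stayed within 1.5 times their main value. The shallowest H3K27me3 library held 3.42 M tags, and the part of depth in these counts was not tested.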

Other observations

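Members lay on all 5 chromosomes, with 35, 21, 26, 24 and 36 on chromosomes 1 to 5. The pairs AT1G76955 and AT1G76960, and CYP71B4 and CYP71B26, were direct neighbours, and LOX2 and AT3G45160 had 1 gene between them. The span of 41 members overlapped another annotated gene, 29 of them a measured one, and in 4 members the overlap covered over 50% of the length. AT3G26450 shared 99.7% of its length with AT3G26440, and SOUL-1 shared 80.4% with an antisense RNA. How reads in such overlaps were assigned was not given in the sources used here.

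In 25 of the 140 protein-coding members no H3K4me3 peak was called in any of 6 libraries, and in 12 no peak of any of the 3 marks was. UGT73C1 was one of these 12, with T10 levels of 29.1 and 25.7 normalised counts.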
